A study of Mus musculus with 16 samples.

Results

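Chemokines are small secreted proteins that bind G protein-coupled receptors and direct the movement of cells, and they are named by the spacing of their first cysteines as CC, CXC, CX3C or XC ligands. In muscle they are best known for drawing neutrophils and monocytes into injured tissue, while the ligand Cxcl12 and its receptor Cxcr4 also act on muscle progenitors, whose migration they direct. Several ligands share 1 receptor: Cxcl1, Cxcl2, Cxcl3 and Cxcl5 signal through Cxcr2, and Cxcl9, Cxcl10 and Cxcl11 through Cxcr3. Described here are the 53 genes on a mouse expression array whose name marks them as a chemokine (35 genes) or a chemokine receptor (18 genes), out of 34836 gene names. They were taken by name, a rule that holds no measured value.

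RNA came from myoblasts, the progeny of satellite cells, which are the stem cells of skeletal muscle, of male C57Bl/6J mice 11 to 13 weeks old, with no transgene or treatment named in the labels. Satellite cells were either left on single isolated myofibers in culture and the myoblasts stripped off with trypsin (myofiber-associated myoblasts), or freed from the muscle and grown on gelatin-coated plates (dispersed myoblasts), and both were collected at 48 and 72 hr. Each of the 4 groups held 4 arrays, 1 array per preparation, with 2 mice behind each myofiber-associated preparation and 1 behind each dispersed one, except that 1 myofiber-associated 48-hr sample was a pool of 2 preparations. It is taken here as replicate 4, whose title alone joins a pair of preparation numbers. All 8 myofiber-associated arrays lay on 1 slide and all 8 dispersed arrays on another, each slide scanned in its own session, so culture, slide and scan cannot be told apart, and within both slides the 72-hr arrays lay in columns 1 and 2 and the 48-hr arrays in columns 3 and 4. Values are normalized log2 signals of the brightest probe of a gene, and a probe counted as measured where the scanner software called it well above background. Between 54 and 63.5% of all probes were so called on an array, and arrays of a group correlated over genes at r of 0.98 or more. The pooled array correlated least with its own group (mean r = 0.98). It was the highest of its group for 18 and the lowest for 8 of the 31 members measured, so results of the myofiber-associated 48-hr group are given with and without it where it matters. All 12 markers in a myoblast list, Pax7, Myod1 and Des among them, were above background on every array. So were all 18 endothelial markers in every group but the myofiber-associated 72-hr one, where 17 were, and all 12 markers of adult muscle fibers.

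Most chemokine genes were measured and most receptor genes were not. The signal was well above background on all 4 arrays of at least 1 group for 27 of the 35 chemokines but for only 4 of the 18 receptors: Ccr7, Ccr8, Cxcr4 and Cxcr6. Of the ligands, 21 were above background on all 16 arrays. The receptors of most of the measured ligands were below background on many arrays or on all. Cxcr2, the receptor of the Cxcl1 to Cxcl5 group, was above background on 1 of 16 arrays, and Ccr2, the receptor of Ccl2 and Ccl7, on none. Cxcr3 was called on 9 arrays, Ccr3 on 9, Ccr9 on 6, Cx3cr1 on 6, Ccr10 on 3 and Ccr6 on 1, with no group complete. Ccr9 was called on 3 of 4 arrays of both myofiber-associated groups and on no dispersed array, and Cx3cr1 on 3 of 4 arrays of both dispersed groups and on no myofiber-associated array. Neither difference was tested, because both genes lay under the filter on low signal. Ccr1, Ccr2, Ccr4, Cxcr1, Cxcr5, Xcr1 and the ligands Ccl12, Ccl20, Ccl22, Ccl24, Ccl26, Cxcl15 and Cxcl17 were above background on no array, and Ccl28 on 3. An array probe below background gives only a bound, so these genes are not shown to be silent. In bulk RNA, fewer cells of a type and less RNA per cell cannot be told apart.

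**Figure D1:**
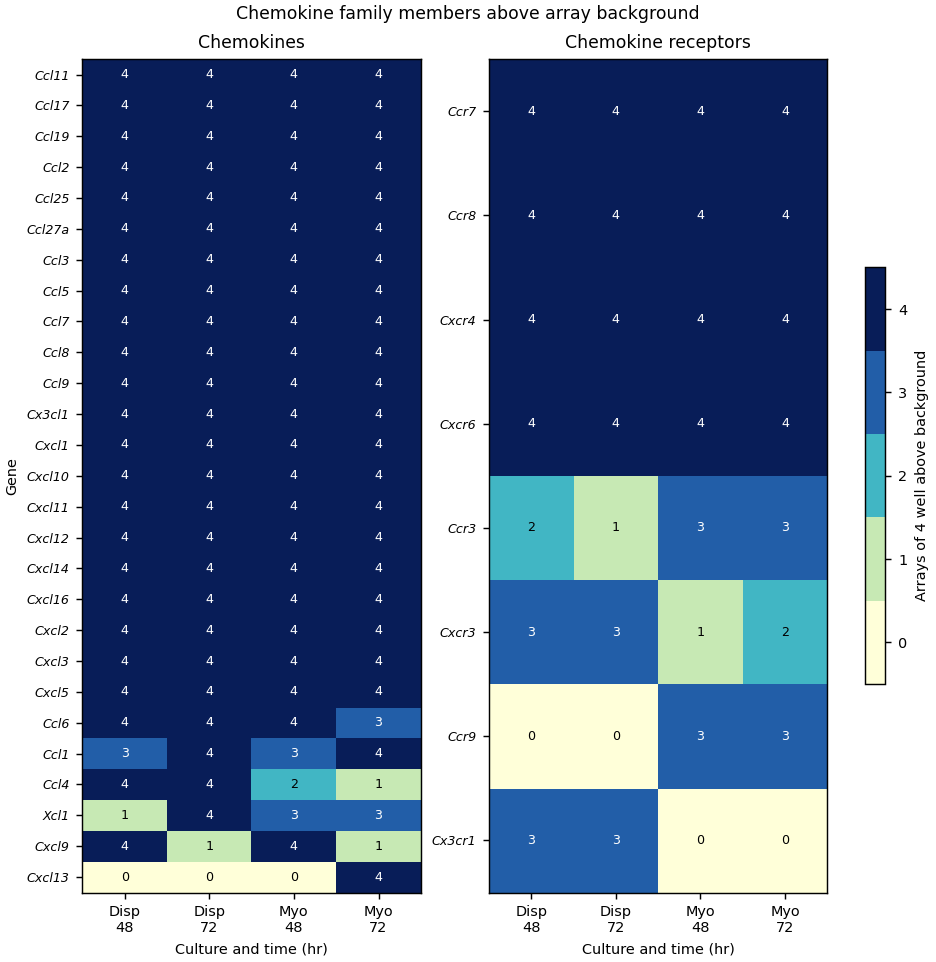
Number of arrays, of 4 in each group, on which the probe of each member was well above background, for the 27 chemokines (left) and 8 chemokine receptors (right) above it on at least 4 of the 16 arrays. The columns are dispersed (Disp) and myofiber-associated (Myo) myoblasts at 48 and 72 hr. Of the 18 receptors, 4 were above background on all 16 arrays.

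Of the 53 members, 27 passed the filter on low signal and were tested by their brightest probe, 23 ligands and 4 receptors, and all of those that changed between 48 and 72 hr fell, in both cultures. In dispersed myoblasts 6 of the 27 changed at an adjusted p under 0.01 (limma, Benjamini-Hochberg over 20317 genes), where 13.7% of all genes tested did, and all 6 fell, where 6.35% of all genes fell and 7.37% rose: Ccl3, Ccl6, Ccl11, Cxcl9, Cxcl16 and Cx3cl1. In myofiber-associated myoblasts 6 of the 27 changed, where 5.48% of all genes did, and again all 6 fell, where 1.75% of all genes fell and 3.74% rose: Ccl9, Ccr8, Cxcl2, Cxcl3, Cxcl9 and Cxcl10. Only Cxcl9 was in both lists. Without regard to a threshold, the estimate was below 0 for 23 of 27 members in dispersed myoblasts (45% of all genes) and for 23 of 27 in myofiber-associated myoblasts (43% of all genes), and the median log2 change over the 27 members was -0.33 and -1.26, against 0.02 and 0.06 over all genes. That a gene passed in 1 culture and not in the other does not show that its changes differed. That difference, the change in dispersed minus the change in myofiber-associated myoblasts, which is called the comparative ratio here, was past the threshold for 2 members, Cxcl12 and Cxcr4, where 3.45% of all genes were, and it was below 0 for 7 of 27 members (57% of all genes). At 48 hr, 15 of 27 members differed between the cultures, where 43.2% of all genes did, 11 higher on the myofiber (16.1% of all genes) and 4 lower (27% of all genes), and the arrays of the cultures did not overlap for 17 (56% of all genes). At 72 hr, 14 of 27 differed, where 27.1% of all genes did, 5 higher (11.5%) and 9 lower (15.6%), and 19 did not overlap (46.4% of all genes). Over all genes the median culture difference at 48 hr was -0.12 (log2; -0.07 with each array scaled to its 75th percentile instead), so a culture difference at 48 hr is to be read against that shift. The number of members higher and lower at 48 hr, 16 and 11 without a threshold (58.6% of all genes were lower), was the same under each scaling tried. At 72 hr 14 were higher and 13 lower (52.4% of all genes).

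**Figure D2:**
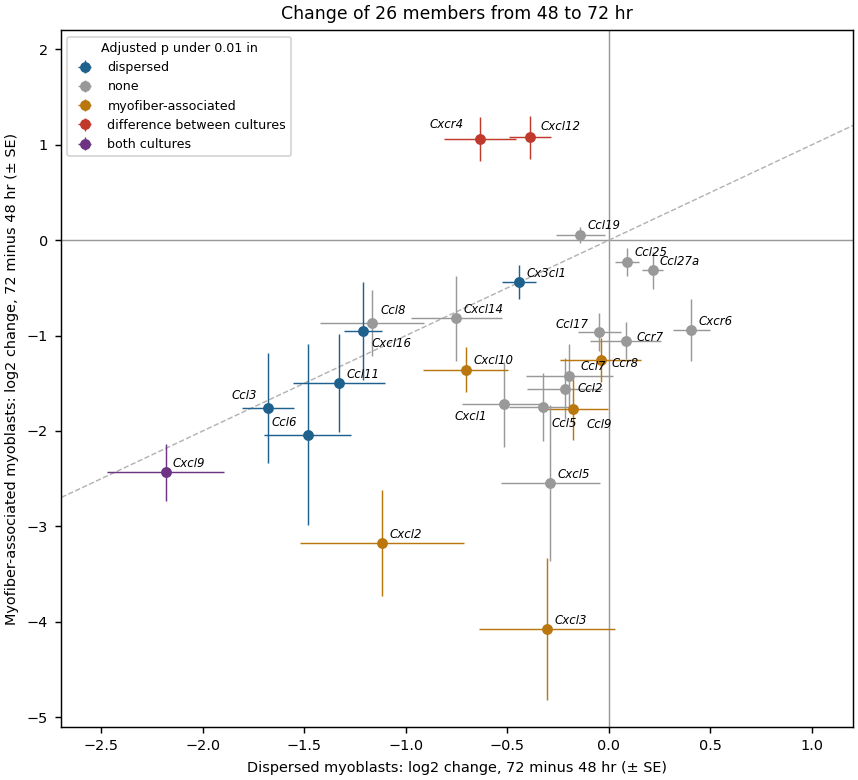
Log2 change from 48 to 72 hr in dispersed myoblasts (x axis) against that in myofiber-associated myoblasts (y axis) for 26 of the 27 members tested, leaving out Cxcl11, whose probe is not specific. Points are the fitted changes, bars their SE (n = 4 arrays per group), colors the comparison in which a gene passed an adjusted p of 0.01, and the dashed line equal change. Most points lie below 0 on both axes, and Cxcl12 and Cxcr4 lie apart, above 0 in myofiber-associated and below 0 in dispersed myoblasts.

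The myofiber-associated calls were close to the threshold. Their adjusted p lay between 0.00234 and 0.00997, and Ccr7 just missed it at 0.01003. Without the pooled array, 7 members were past it: Ccl2, Ccl5 and Ccl7 passed in addition (log2 change -1.23, -1.39 and -1.08, adjusted p = 0.00442, 0.00500 and 0.00817), and Ccl9 and Cxcl10 were lost. Over all 20317 genes tested, 1990 were past it without the pooled array and 1114 with it. Leaving out any 1 of the other 7 arrays of this comparison left between 1 and 3 members past it, so every call but that of Cxcl9 was lost with at least 6 of the 8 arrays. Of all genes tested, between 232 and 1394 were past it with 1 of those 7 left out. With the row of the slide as a block, Cxcl9 alone passed in myofiber-associated myoblasts, and 10 members passed in dispersed ones. The number of all genes past the threshold with that block is not given here. The number of members with an estimate below 0 was 23 whichever array was left out, and the median over the 27 members stayed between -1.30 and -1.10. In dispersed myoblasts, between 4 and 6 members were past the threshold with 1 array left out. Of all genes tested, between 1665 and 2505 were then past it, against 2789 with every array. Leaving out dispersed 48-hr replicate 2 or 3 or dispersed 72-hr replicate 1 gave 4 members, and the calls lost there were those of Ccl11 and Cx3cl1.

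Of the Cxcr2 ligands, which attract neutrophils, Cxcl3 and Cxcl2 gave the largest falls past the threshold among the members in myofiber-associated myoblasts. Cxcl3 fell by 4.08 on the log2 scale (SE 0.74, 16.9-fold, adjusted p = 0.0094), and Cxcl2 fell by 3.18 (SE 0.55, 9.04-fold, adjusted p = 0.00809). Without the pooled array the falls were smaller, 10.9-fold for Cxcl3 (log2 change -3.45, SE 0.59, adjusted p = 0.00722) and 6.15-fold for Cxcl2 (log2 change -2.62, SE 0.33, adjusted p = 0.00287). In replicate order, Cxcl3 read 10.41, 9.94, 9.66 and 12.52 on the myofiber-associated arrays at 48 hr and 5.81, 6.39, 8.25 and 5.77 at 72 hr. The groups did not overlap, and the pooled array, which stands last in the 48-hr list, was the highest by more than 2 log2 units. In dispersed myoblasts Cxcl3 read 12.8, 12.71, 12.37 and 11.57 at 48 hr and 12.57, 12.35, 11.94 and 11.38 at 72 hr, and these groups overlapped (log2 change -0.30, SE 0.33, adjusted p = 0.551). The comparative ratio of Cxcl3 was 3.78 (95% CI 1.90 to 5.65, adjusted p = 0.0147), which missed the threshold and passed it without the pooled array or without myofiber-associated 72-hr replicate 3. Cxcl3 at 72 hr was 5.50 log2 units lower in myofiber-associated than in dispersed myoblasts (SE 0.55, 45.4-fold, adjusted p = 0.000202), the largest difference between cultures among the members.

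Cxcl2 was highest on the myofiber at 48 hr. It read 9.14, 9.49, 8.52 and 11.27 on the myofiber-associated arrays at 48 hr and 6.6, 5.68, 6.5 and 6.94 at 72 hr, with no overlap. In dispersed myoblasts it read 7.02, 7.22, 6.7 and 5.86 at 48 hr and 5.97, 6.23, 5.53 and 4.61 at 72 hr, which overlapped (log2 change -1.12, SE 0.40, adjusted p = 0.077). At 48 hr Cxcl2 was 2.90 log2 units higher in myofiber-associated myoblasts (SE 0.57, adjusted p = 0.00265). Without the pooled array Cxcl2 was 2.35 higher there (SE 0.35, adjusted p = 0.000711). Its culture difference at 72 hr was 0.84 (95% CI -0.04 to 1.73, adjusted p = 0.107). Cxcl1 was also highest on the myofiber at 48 hr, with a mean of 14.72 ± 0.90 in myofiber-associated myoblasts at 48 hr, 13.00 ± 0.52 at 72 hr, 12.82 ± 0.28 in dispersed myoblasts at 48 hr and 12.30 ± 0.38 at 72 hr (SD, n = 4). Cxcl1 was higher in myofiber-associated myoblasts at 48 hr by 1.90 (SE 0.40, adjusted p = 0.00401), and its change with time in those cells, -1.72, missed the threshold (SE 0.45, adjusted p = 0.0301). Without the pooled array its difference at 48 hr was 1.48 (SE 0.21, adjusted p = 0.000531). Cxcl5 sided with Cxcl3: at 72 hr it was 2.80 lower on the myofiber (SE 0.55, adjusted p = 0.00467), the means being 11.45 ± 1.21 against 14.25 ± 0.41 (SD, n = 4). Thus at 72 hr Cxcl3 and Cxcl5 were lower on the myofiber, while Cxcl1 and Cxcl2 were not past the threshold in either direction. At 48 hr the culture differences of Cxcl3 and Cxcl5 missed it (-1.73 and -0.55, adjusted p = 0.0358 and 0.494). Without the pooled array both were past it at 48 hr and lower on the myofiber (-2.36 and -1.29, adjusted p = 0.000391 and 0.000565). The pooled array held the highest value of its group for all 4 ligands. Its Cxcl5 signal of 16.23 stood above the next array, at 13.27, and the change of Cxcl5 with time, -2.55, missed the threshold (SE 0.82, adjusted p = 0.0556). Without the pooled array that of Cxcl5 was -1.80 (SE 0.59, adjusted p = 0.0491) and that of Cxcl1 -1.30 (SE 0.30, adjusted p = 0.0181), neither past it.

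Cxcl1, Cxcl2 and Cxcl3 lie together on chromosome 5 with Cxcl5 and Cxcl15, in a stretch of 144 kb between the array probes (mm9, chr5:91190490-91334593). The promoters of the members were read for 2 motifs on both strands. The first was GGGANNTTCC, a form of the site of NF-kB, the transcription factor of the inflammatory response. The second was GAAANNGAAA, a form of the interferon-stimulated response element. Those of Cxcl1, Cxcl2 and Cxcl3 are shown because Cxcl2 and Cxcl3 fell in myofiber-associated myoblasts. Cxcl1, whose estimate was below 0 as well, is their neighbor. The RefSeq promoter table (GRCm38.p6), cut here to the 250 bases before the start site, held 38 of the 53 members. The NF-kB letters stood in the promoter of 6 of these 38 genes (Ccl1, Ccr3, Cxcl1, Cxcl2, Cxcl3 and Cxcl10), and in at least 1 promoter of 1.36% of all 27025 genes in the table (1.21% of its 32851 promoters). Ccl3, Ccl6, Ccl9, Ccr8, Cx3cl1 and Cxcl9, whose falls also passed the threshold, had promoters without these letters. Ccl11 and Cxcl16, which passed too, had no promoter there, and Ccl1 and Ccr3 were not tested for change. Whether the letters go with a fall was not tested. Below are the 250 bases before the start of the 3 genes, 5′ to 3′ on the strand of the gene, with the match in capitals; the letters matched on both strands, overlapping by all but 1 base, and were counted as 1 site.
Cxcl1, plus strand, chr5:90890995-90891244: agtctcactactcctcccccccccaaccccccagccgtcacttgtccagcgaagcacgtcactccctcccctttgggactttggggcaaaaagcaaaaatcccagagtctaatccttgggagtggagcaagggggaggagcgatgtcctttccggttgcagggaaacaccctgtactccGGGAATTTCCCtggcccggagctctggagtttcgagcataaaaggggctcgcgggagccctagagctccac
Cxcl2, plus strand, chr5:90903649-90903898: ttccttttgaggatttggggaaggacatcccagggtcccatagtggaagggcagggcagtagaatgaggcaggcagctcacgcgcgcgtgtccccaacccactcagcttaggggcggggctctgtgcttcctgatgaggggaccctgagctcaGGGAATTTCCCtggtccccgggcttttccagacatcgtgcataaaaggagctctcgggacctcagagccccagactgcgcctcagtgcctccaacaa
Cxcl3, plus strand, chr5:90785851-90786100: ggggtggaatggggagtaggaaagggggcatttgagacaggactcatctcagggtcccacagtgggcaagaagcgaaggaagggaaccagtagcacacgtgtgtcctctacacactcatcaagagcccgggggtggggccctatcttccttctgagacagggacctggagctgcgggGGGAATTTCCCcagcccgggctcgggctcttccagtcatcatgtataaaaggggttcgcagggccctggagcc
The same 11 letters, GGGAATTTCCC, stood in all 3, beginning 71, 97 and 73 bases before the start of Cxcl1, Cxcl2 and Cxcl3. A match in letters is a description of the sequence and not evidence of binding.

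Cxcl9 and Cxcl10, which are induced by interferon and attract T cells through Cxcr3, fell with time, Cxcl9 in both cultures and Cxcl10 on the myofiber. Cxcl9 was the only tested member past the threshold in both cultures. It passed the filter on low signal through its 48-hr arrays, its 72-hr means being 4.18 and 3.39 against a filter at 5, so its place in those counts partly follows from the filter. With no filter on low signal it passed in both cultures as well (adjusted p = 0.00444 and 0.00820). In dispersed myoblasts it read 5.77, 6.47, 6.48 and 6.74 at 48 hr and 4.79, 3.97, 4.34 and 3.61 at 72 hr, a fall of 2.18 (SE 0.29, 4.54-fold, adjusted p = 0.00122). In myofiber-associated myoblasts it read 6.5, 5.7, 5.35 and 5.73 at 48 hr and 2.76, 3.87, 3.61 and 3.31 at 72 hr, a fall of 2.43 (SE 0.30, 5.41-fold, adjusted p = 0.00234). The groups overlapped in neither culture, and the fall stayed past the threshold in both whichever array was left out. Since only 1 array of each 72-hr group was above background, the true folds may be larger than these fitted ones. Its second probe gave changes of -1.66 and -2.07. With most 72-hr arrays below background, its changes in the cultures are not compared.

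Cxcl10 was above background on all arrays. In myofiber-associated myoblasts it read 10.45, 10.33, 10.4 and 10.81 at 48 hr and 9.62, 8.5, 9.03 and 9.42 at 72 hr, a fall of 1.36 (SE 0.24, 2.56-fold, adjusted p = 0.00824) with no overlap. A second Cxcl10 probe was above background on only 3 of 16 arrays and is not read. The call of this fall was lost whichever array was left out, with adjusted p between 0.01 and 0.0285. In dispersed myoblasts Cxcl10 read 9.12, 9.31, 9.37 and 10.11 at 48 hr and 8.76, 9.05, 8.69 and 8.59 at 72 hr, again without overlap, and the change of -0.70 missed the threshold (SE 0.21, adjusted p = 0.0398). At 48 hr Cxcl10 was 1.02 higher in myofiber-associated myoblasts (SE 0.21, adjusted p = 0.00369). Its promoter is shown because it alone among the 38 members read held both motifs, the interferon letters beginning 213 and the NF-kB letters 159 bases before the start; the capitals mark them in that order.
Cxcl10, minus strand, chr5:92348890-92349139: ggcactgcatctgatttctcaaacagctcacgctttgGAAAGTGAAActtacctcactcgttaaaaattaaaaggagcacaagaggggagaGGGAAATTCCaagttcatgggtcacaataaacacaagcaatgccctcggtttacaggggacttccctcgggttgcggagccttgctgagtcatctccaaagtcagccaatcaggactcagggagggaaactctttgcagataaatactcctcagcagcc
The interferon letters stood in a promoter of 3 of the 38 genes (Ccl19, Cxcl10 and Cxcl14) and of 3.46% of all genes in the table (2.98% of its promoters).

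Cxcl11, the third Cxcr3 ligand, could not be read. Its brighter probe gave 17.42 to 17.84 on all 16 arrays, and it shares 20-base stretches with probes of 7 other genes and with the promoters of 16 other genes. The stretch shared with the most probes is shown because its letters are not particular to Cxcl11.
Cxcl11 probe, shared stretch: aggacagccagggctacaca
The dimmer probe gave group means between 12.29 and 12.59. Neither was taken as a level of Cxcl11 here, although the gene stays among the 27 counted as tested, where it passed in no comparison. No other member's representative probe shared a stretch of 20 bases with a probe of another gene.

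Among the monocyte attractants, Ccl2 and Ccl7 were lower on the myofiber than in dispersed myoblasts at 72 hr. Ccl2 averaged 17.22 ± 0.23 at 48 hr and 17.00 ± 0.35 at 72 hr in dispersed myoblasts and 16.69 ± 0.66 and 15.13 ± 0.33 in myofiber-associated ones (SD, n = 4). At 72 hr the culture difference of Ccl2 was -1.87 (SE 0.21, adjusted p = 0.000369) and that of Ccl7 -1.52 (SE 0.22, adjusted p = 0.00121), and the groups overlapped for neither. At 48 hr neither differed past the threshold (-0.53 and -0.29, adjusted p = 0.16 and 0.464). Without the pooled array Ccl2 was past it at 48 hr (-0.86, SE 0.13, adjusted p = 0.000707). Ccl7 still missed it there (-0.63, SE 0.17, adjusted p = 0.01255). Their changes with time in myofiber-associated myoblasts, -1.56 and -1.42, missed the threshold (adjusted p = 0.0148 and 0.0223), though the 48- and 72-hr arrays did not overlap. Ccl7 averaged 15.05 ± 0.32, 14.85 ± 0.36, 14.76 ± 0.69 and 13.33 ± 0.35 in the same order. For both genes the pooled array was the highest of its group, by more than 1 log2 unit.

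Ccl11, or eotaxin, which attracts eosinophils, and Ccl8 were higher on the myofiber instead. Ccl11 fell in dispersed myoblasts by 1.33 (SE 0.23, 2.51-fold, adjusted p = 0.00411). It read 7.15, 7.83, 7.83 and 7.2 there at 48 hr and 6.29, 6.26, 6.48 and 5.67 at 72 hr. These arrays did not overlap, but the call was lost without dispersed 48-hr replicate 2 or 3 or dispersed 72-hr replicate 1 or 2 (largest adjusted p 0.0137). In myofiber-associated myoblasts Ccl11 read 8.83, 8.66, 9.53 and 9.61 at 48 hr and 6.18, 8.02, 7.66 and 8.77 at 72 hr, with overlap, and its change of -1.50 missed the threshold (SE 0.51, adjusted p = 0.0646). At 48 hr it was 1.65 higher in myofiber-associated myoblasts (SE 0.27, adjusted p = 0.00104). Ccl8 was higher there at both times, by 1.28 at 48 hr (SE 0.32, adjusted p = 0.00871) and 1.58 at 72 hr (SE 0.29, adjusted p = 0.0034). Without the pooled array Ccl8 was 0.98 higher at 48 hr (SE 0.22, adjusted p = 0.00526). Its means were 6.29 ± 0.38 and 5.12 ± 0.44 in dispersed and 7.57 ± 0.63 and 6.70 ± 0.50 in myofiber-associated myoblasts (SD, n = 4). Of 4 CC ligands that lie within 140 kb on chromosome 11 (mm9, chr11:81850650-81990510, with Ccl1 and Ccl12), Ccl2 and Ccl7 were lower and Ccl8 was higher on the myofiber at 72 hr, and Ccl11 missed the threshold (1.48, SE 0.49, adjusted p = 0.0392).

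The second CC group on chromosome 11 (mm9, chr11:83339296-83478111) holds Ccl3, Ccl4, Ccl5, Ccl6 and Ccl9, products of many leukocytes, most of them ligands of Ccr1. Ccl3 fell in dispersed myoblasts by 1.68 (SE 0.13, 3.21-fold, adjusted p = 0.000105). It read 6.92, 7.26, 6.8 and 6.92 at 48 hr and 5.58, 5.28, 5.11 and 5.2 at 72 hr, well apart. In myofiber-associated myoblasts it read 7.68, 6.18, 6.37 and 8.62 and 4.48, 5.7, 6.13 and 5.53, also without overlap but with a wider spread, and its change of -1.76 missed the threshold (SE 0.57, adjusted p = 0.0581). Ccl6 fell in dispersed myoblasts by 1.48 (SE 0.21, 2.79-fold, adjusted p = 0.00198). It read 10.73, 10.98, 10.31 and 10.5 at 48 hr and 9.46, 9.15, 9.39 and 8.59 at 72 hr there, and 8.75, 8.6, 8.67 and 7.4 and 5.82, 7.61, 3.52 and 8.31 in myofiber-associated myoblasts. On the myofiber the spread at 72 hr was wide and replicate 3 was not above background, and the change of -2.04 had a 95% CI of -4.21 to 0.13. At 48 hr Ccl6 was lower in myofiber-associated myoblasts (difference -2.28, SE 0.30, adjusted p = 0.00040).

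Ccl9 fell in myofiber-associated myoblasts, by 1.77 (SE 0.32, 3.42-fold, adjusted p = 0.00915). It read 10.49, 10.37, 10.41 and 10.2 there at 48 hr and 8.22, 9.11, 7.75 and 9.28 at 72 hr. The dispersed arrays lay above all of these, at 11.92, 12.15, 11.87 and 11.57 at 48 hr and 11.78, 12.03, 11.68 and 11.32 at 72 hr (change -0.17, SE 0.17, adjusted p = 0.49). Ccl9 was thus lower on the myofiber at both times, with differences of -1.51 at 48 hr (SE 0.13, adjusted p = 3.92e-05) and -3.11 at 72 hr (SE 0.34, adjusted p = 0.000307), past the threshold whichever array was left out. The fall with time passed in 1 of the 8 fits that left an array out, the one without myofiber-associated 72-hr replicate 4. Ccl5 averaged 8.85 ± 0.27 and 8.53 ± 0.26 in dispersed and 9.28 ± 0.78 and 7.53 ± 0.29 in myofiber-associated myoblasts (SD, n = 4) and was 0.99 lower on the myofiber at 72 hr (SE 0.18, adjusted p = 0.0028). Ccl4 was above background on all 8 dispersed arrays, on 2 myofiber-associated arrays at 48 hr and on 1 at 72 hr, and lay under the filter.

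**Figure D3:**
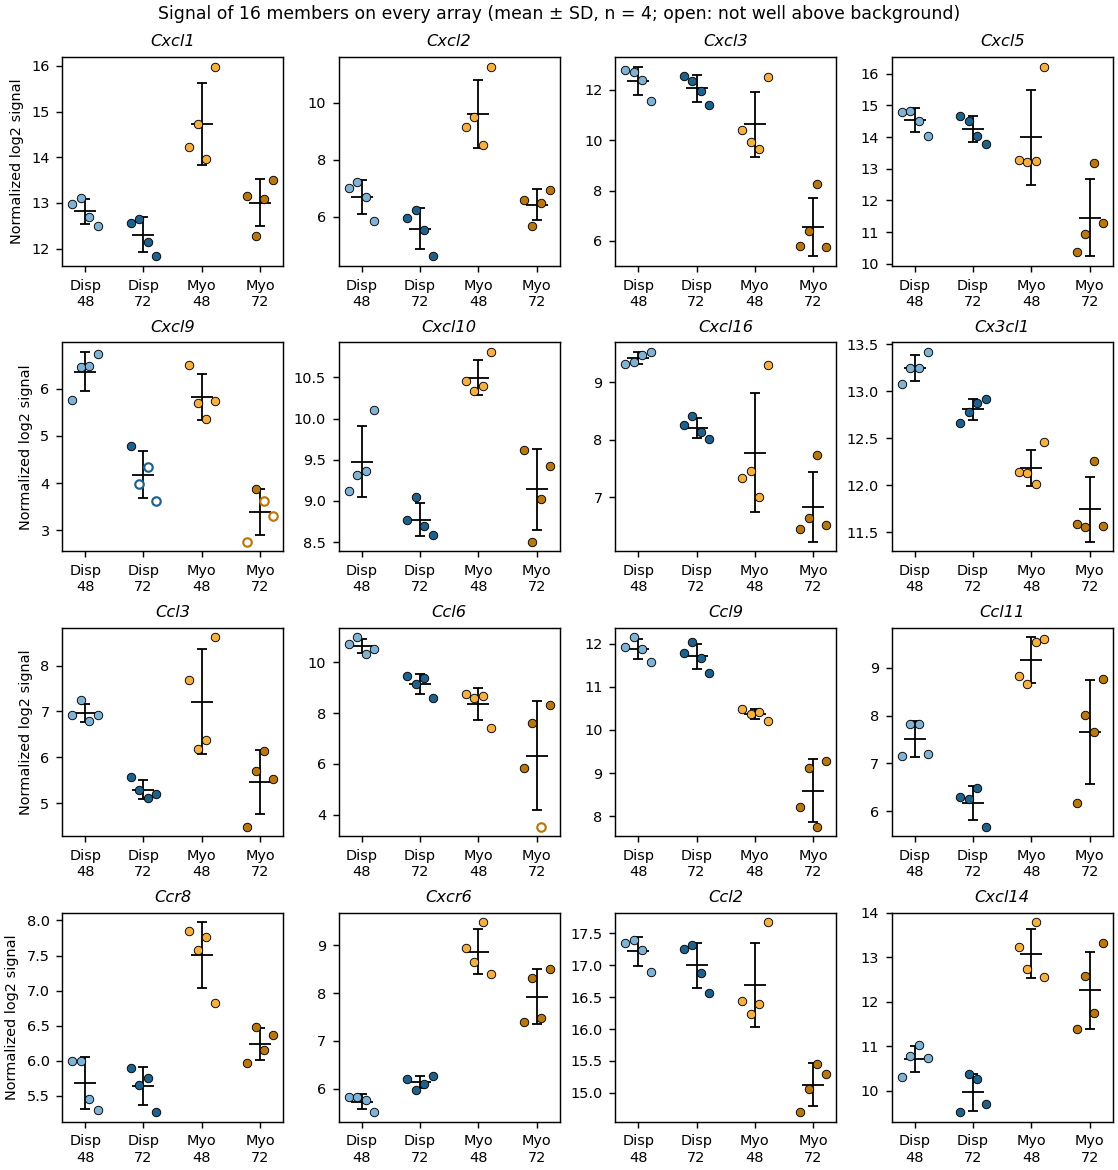
Normalized log2 signal of 16 members on each of the 16 arrays, by culture (Disp, dispersed; Myo, myofiber-associated) and time in hr. Points are arrays in replicate order, open points were not well above background, and bars show mean ± SD (n = 4). Falls of Cxcl2 and Cxcl3 passed the threshold on the myofiber, those of Ccl3, Cxcl16 and Ccl6 in dispersed myoblasts and that of Cxcl9 in both. The means of Cxcl2, Cxcl3, Ccl3, Cxcl16 and Ccl6 were lower at 72 hr in the other culture too, without passing. Replicate 4 of the myofiber-associated 48-hr group is high for Cxcl1, Cxcl2, Cxcl3 and Cxcl5.

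The 2 chemokines that are made as membrane-bound proteins, Cxcl16 and Cx3cl1, fell past the threshold in dispersed myoblasts. Their estimates were below 0 on the myofiber too, without passing. Cxcl16 read 9.32, 9.35, 9.48 and 9.53 at 48 hr and 8.26, 8.42, 8.14 and 8.01 at 72 hr, a fall of 1.21 (SE 0.09, 2.32-fold, adjusted p = 0.000111) that stayed past the threshold whichever array was left out. In one fit of all 16 arrays Cxcl16 missed the threshold in dispersed myoblasts (adjusted p = 0.0693). On the myofiber it read 7.34, 7.46, 7.01 and 9.3 at 48 hr and 6.44, 6.63, 7.73 and 6.51 at 72 hr. Those groups overlapped, and the change of -0.95 missed the threshold (SE 0.51, adjusted p = 0.193). The comparative ratio of Cxcl16 was -0.26 (SE 0.56, adjusted p = 0.762). Cx3cl1, or fractalkine, read 13.08, 13.25, 13.25 and 13.42 in dispersed myoblasts at 48 hr and 12.66, 12.78, 12.87 and 12.91 at 72 hr, a fall of 0.44 (SE 0.08, adjusted p = 0.00684) that was lost in 6 of the 8 fits that left 1 dispersed array out, all but those without 48-hr replicate 1 or 72-hr replicate 4 (largest adjusted p 0.0217). On the myofiber it read 12.14, 12.13, 12.01 and 12.46 and 11.59, 11.56, 12.26 and 11.57, below every dispersed array of the same time. Its change there was also -0.44 (SE 0.18, adjusted p = 0.106), and its comparative ratio was -0.0034 (SE 0.21, adjusted p = 0.99). Its culture difference was -1.06 at both times (SE 0.12 and 0.16, adjusted p = 0.000149 and 0.00151).

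Cxcr6, the receptor of Cxcl16, was higher on the myofiber. It averaged 5.73 ± 0.15 and 6.13 ± 0.13 in dispersed and 8.87 ± 0.47 and 7.92 ± 0.58 in myofiber-associated myoblasts (SD, n = 4), so it was 3.14 higher on the myofiber at 48 hr (SE 0.22, 8.81-fold, adjusted p = 1.46e-05) and 1.79 higher at 72 hr (SE 0.26, adjusted p = 0.00113). Both of its probes showed this. Cxcl16 was lower on the myofiber at 72 hr by 1.38 (SE 0.28, adjusted p = 0.00489), and its difference of -1.64 at 48 hr missed the threshold (SE 0.44, adjusted p = 0.0126). Without the pooled array its difference at 48 hr was -2.15 and past the threshold (SE 0.12, adjusted p = 6.07e-06). Cxcr6 moved up by 0.41 with time in dispersed and down by 0.94 in myofiber-associated myoblasts, neither past the threshold (adjusted p = 0.0141 and 0.0654), and its comparative ratio of 1.35 (SE 0.36, adjusted p = 0.0252) passed only when the pooled array or myofiber-associated 72-hr replicate 4 was left out. Cx3cr1, the receptor of Cx3cl1, was not above background on any myofiber-associated array.

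Cxcl12 and Cxcr4, the pair that guides muscle progenitors, were the only members whose change with time differed between the cultures past the threshold. Cxcl12 (probe at mm9 chr6:117131227-117131286) read 15.8, 16, 16.15 and 16.17 in dispersed myoblasts at 48 hr and 15.47, 15.6, 15.81 and 15.67 at 72 hr. The groups overlapped and the change of -0.39 missed the threshold (SE 0.10, adjusted p = 0.025). In myofiber-associated myoblasts it read 12.65, 12.76, 12.48 and 12.98 at 48 hr and 14.26, 13.51, 14.09 and 13.31 at 72 hr, without overlap, and the change of 1.08 missed it too (SE 0.22, adjusted p = 0.0152). The difference of these changes was -1.47 (SE 0.26, 95% CI -2.02 to -0.91, adjusted p = 0.00376). Cxcl12 was lower on the myofiber at both times, by 3.31 at 48 hr (SE 0.13, 9.95-fold, adjusted p = 1.27e-06), the largest culture difference of a member at that time, and by 1.85 at 72 hr (SE 0.21, 3.6-fold, adjusted p = 0.000369).

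The 2 probes of Cxcl12 did not agree in dispersed myoblasts. The dimmer probe, designed to another transcript of the gene, averaged 12.07 at 48 hr and 12.47 at 72 hr in dispersed myoblasts, against 10.20 and then 11.09 on the myofiber. By this probe Cxcl12 rose by 0.39 in dispersed myoblasts (SE 0.06, adjusted p = 0.00302), against the estimate of -0.39 by the brighter probe, and the comparative ratio shrank to -0.50 (adjusted p = 0.284). Both probes were lower on the myofiber at both times and higher there at 72 than at 48 hr. The direction of Cxcl12 with time in dispersed myoblasts and the size of its comparative ratio therefore rest on the probe chosen.

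Cxcr4 had 1 probe (mm9 chr1:130485079-130485138). It read 8.87, 9.02, 9.09 and 9.56 in dispersed myoblasts at 48 hr and 8.2, 8.38, 8.58 and 8.83 at 72 hr, all of the later arrays below the earlier ones (change -0.63, SE 0.18, adjusted p = 0.0316). In myofiber-associated myoblasts it read 7.8, 8.7, 7.76 and 8.53 at 48 hr and 9.51, 9.08, 9.29 and 9.16 at 72 hr, all of the later arrays above the earlier ones (change 1.06, SE 0.23, adjusted p = 0.0179). Neither change passed the threshold alone, and their difference of -1.69 did (SE 0.31, 95% CI -2.35 to -1.04, adjusted p = 0.00438). At 72 hr Cxcr4 was 0.76 higher on the myofiber (SE 0.15, adjusted p = 0.00458), and at 48 hr its difference of -0.93 missed the threshold (SE 0.25, adjusted p = 0.0117). Without the pooled array its difference at 48 hr was -1.045 and past the threshold (SE 0.26, adjusted p = 0.00805). Both comparative ratios fell just outside the threshold without dispersed 48-hr replicate 4 or dispersed 72-hr replicate 1 or 2, and that of Cxcr4 also without dispersed 72-hr replicate 3 or replicate 1 of either myofiber-associated group. Their largest adjusted p was 0.0108 for Cxcl12 and 0.012 for Cxcr4, and the estimates stayed between -1.63 and -1.31 and between -1.86 and -1.55. Ackr3, the atypical receptor that takes up Cxcl12 and lies outside the name pattern, rose in both cultures, by 0.46 in dispersed (SE 0.05, adjusted p = 0.000362) and 1.08 in myofiber-associated myoblasts (SE 0.14, adjusted p = 0.00301).

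**Figure D4:**
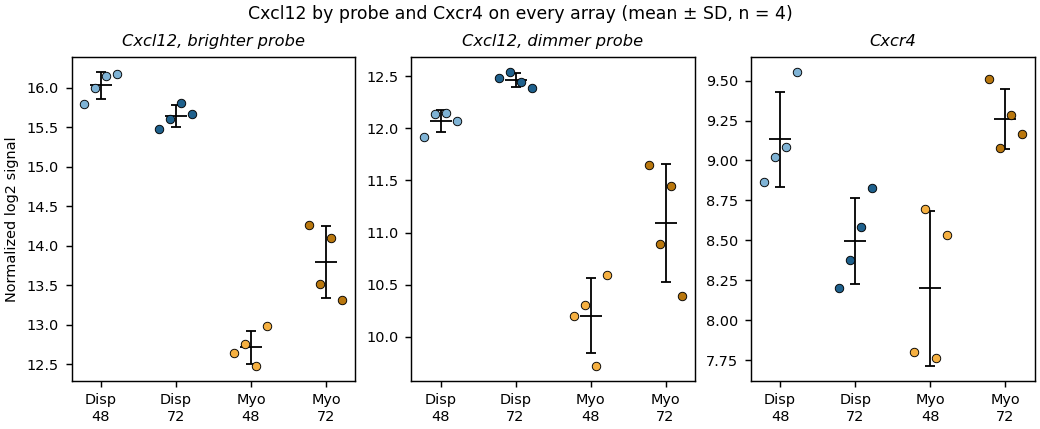
Normalized log2 signal of the 2 Cxcl12 probes and of Cxcr4 on each of the 16 arrays, by culture (Disp, dispersed; Myo, myofiber-associated) and time in hr, with mean ± SD (n = 4). From 48 to 72 hr the 2 Cxcl12 probes move in opposite directions in dispersed myoblasts, and Cxcr4 is lower at 72 hr in dispersed and higher at 72 hr in myofiber-associated myoblasts.

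The remaining receptors and the ligands that are usually made without inflammation gave these values. Ccr8, the receptor of Ccl1 and, in the mouse, of Ccl8, read 7.85, 7.58, 7.76 and 6.82 in myofiber-associated myoblasts at 48 hr and 5.97, 6.49, 6.15 and 6.36 at 72 hr, a fall of 1.26 (SE 0.23, adjusted p = 0.00997). That call passed in 1 of the 8 fits that left an array out, the one without the pooled array. A second Ccr8 probe, to the same transcript, was above background on none of the 16 arrays, and over the mean of both probes the change was -0.56 and missed the threshold. By the brighter probe the comparative ratio of Ccr8, 1.22, missed the threshold (adjusted p = 0.0252). It passed without the pooled array (1.45, adjusted p = 0.00286). In dispersed myoblasts Ccr8 read 6, 5.99, 5.45 and 5.29 and 5.89, 5.66, 5.75 and 5.26, lower than every myofiber-associated array at 48 hr (difference 1.82, SE 0.26, adjusted p = 0.000558). Ccr7, the receptor of Ccl19, was likewise 1.04 higher on the myofiber at 48 hr (SE 0.14, adjusted p = 0.000382) and not past the threshold at 72 hr (-0.10, adjusted p = 0.737), with means of 5.34 ± 0.22, 5.42 ± 0.33, 6.38 ± 0.19 and 5.32 ± 0.39 in dispersed 48 and 72 hr and myofiber-associated 48 and 72 hr (SD, n = 4). Both receptors thus had their highest signal on the myofiber at 48 hr.

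Cxcl14, a CXC ligand of epithelia, was the ligand most steadily higher on the myofiber. It averaged 10.71 ± 0.30 and 9.96 ± 0.42 in dispersed and 13.08 ± 0.55 and 12.26 ± 0.87 in myofiber-associated myoblasts (SD, n = 4), a difference of 2.37 at 48 hr (SE 0.27, 5.16-fold, adjusted p = 0.000194) and 2.30 at 72 hr (SE 0.42, adjusted p = 0.00321). The second of these was lost without dispersed 72-hr replicate 1 or myofiber-associated 72-hr replicate 2 (largest adjusted p 0.0116). Ccl27a, an attractant of skin T cells, was higher there by 0.93 at 48 hr (SE 0.17, adjusted p = 0.00177), with means of 10.37 ± 0.36 against 9.45 ± 0.06, and its 3 probes ran the same way. Its comparative ratio of 0.53 missed the threshold (adjusted p = 0.0953) and passed it without the pooled array (0.70, adjusted p = 0.00723). Near-identical gene copies lie beside Ccl27a and Ccl19 on chromosome 4, so their signal may not be of 1 gene. Ccl25, a ligand of Ccr9, was 0.66 higher on the myofiber at 48 hr (SE 0.13, adjusted p = 0.00339) and 0.34 higher at 72 hr (SE 0.08, adjusted p = 0.00806) by its brightest probe, but its dimmer probes ran the other way at 48 hr, so no direction is given for the gene. Ccl17 and Ccl19 passed in no comparison, and a dimmer Ccl19 probe, above background on 9 arrays, gave larger estimates with time, -2.26 in dispersed and -0.78 in myofiber-associated myoblasts. Ccl17 averaged 5.84 ± 0.12, 5.79 ± 0.20, 6.14 ± 0.28 and 5.18 ± 0.33 in dispersed 48 and 72 hr and myofiber-associated 48 and 72 hr, and Ccl19 averaged 6.88 ± 0.24, 6.74 ± 0.12, 6.96 ± 0.07 and 7.01 ± 0.08 (SD, n = 4).

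Cxcl13, the B-cell attractant, was the only member above background on every array of 1 group and on no array of the others. It read 5.4, 4.19, 5.41 and 4.85 in myofiber-associated myoblasts at 72 hr, and was not above background on the other 12 arrays. Against the lowest signals called above background on each array, it was at least 2.34-fold higher at 72 than at 48 hr on the myofiber and at least 1.95-fold higher than in dispersed myoblasts at 72 hr. Some signals above these limits were not called, and with the 99th percentile of the uncalled signals as the limit the bounds were 1.95- and 1.69-fold. The gene lay under the filter on low signal and was not tested in the main analysis. With no filter its estimates were above 0 and past the threshold in both cultures (adjusted p = 0.00475 in dispersed, where no array was above background, and 0.00353 in myofiber-associated myoblasts). Ccl1 was above background on 14 arrays at group means between 4.20 and 4.81, and Xcl1, a ligand of T and NK cells, on 11 arrays, complete in dispersed myoblasts at 72 hr alone, and neither passed the filter. A second Ccl1 probe was above background on no array.

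Most of the culture differences held with any 1 array left out. At 48 hr this was so for Ccl6, Ccl9, Ccl11, Ccl27a, Ccr7, Ccr8, Cx3cl1, Cxcl2, Cxcl12, Cxcl14 and Cxcr6, and at 72 hr for Ccl2, Ccl7, Ccl9, Cx3cl1, Cxcl3, Cxcl12 and Cxcr6. The others passed or missed depending on the array. At 48 hr Cxcl1 was lost without dispersed replicate 1, 3 or 4 or myofiber-associated replicate 2 (largest adjusted p 0.0135), Cxcl10 without dispersed replicate 1, 2 or 3 or myofiber-associated replicate 1 (0.0132), Ccl8 without dispersed replicate 1, 3 or 4 or myofiber-associated replicate 2 or 3 (0.0266), and Ccl25 without dispersed replicate 1 or 2 or myofiber-associated replicate 1 (0.0127). At 72 hr Cxcl5 and Cxcl16 were lost without dispersed replicate 1, 2 or 3 or myofiber-associated replicate 1, 2 or 4 (0.0163 and 0.0174). Cxcr4 was lost without dispersed replicate 1, 2 or 3 or myofiber-associated replicate 1 or 3 (0.0168), Ccl8 without dispersed replicate 3 or myofiber-associated replicate 2 or 4 (0.0125), and Ccl5 without dispersed replicate 1 (0.0101). Ccl25 passed at 72 hr only without myofiber-associated replicate 3 (largest adjusted p 0.029 otherwise). Because these comparisons set 1 slide against the other, none of them can be told apart from a difference between slides.

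**Figure D5:**
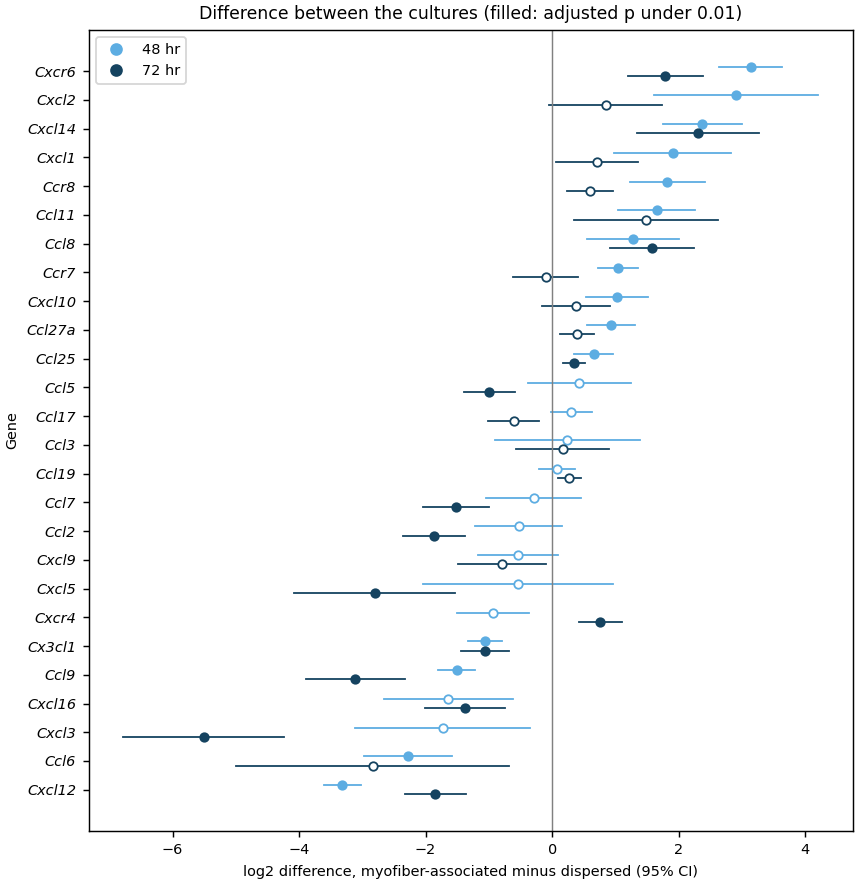
Log2 difference between myofiber-associated and dispersed myoblasts at 48 hr (light) and 72 hr (dark) for 26 members tested, with its 95% CI (n = 4 arrays per group). Filled points passed an adjusted p of 0.01. Cxcr6 and Cxcl14 lie to the right at both times, and Cxcl12, Ccl9 and Cx3cl1 to the left.

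Genes that act with the chemokines were counted from lists. The counts of lists here and below are to be read against all genes tested. Of these, 7.37% rose and 6.35% fell in dispersed myoblasts, and 3.74% rose and 1.75% fell in myofiber-associated ones. Of 9 tested relatives outside the name pattern, 1 rose and 4 fell in dispersed and 1 rose and 2 fell in myofiber-associated myoblasts. Ppbp (Cxcl7) and Pf4 (Cxcl4), platelet chemokines that belong to the same family as Cxcl1 to Cxcl5, fell on the myofiber (log2 change -2.97, adjusted p = 0.00788, and -2.26, adjusted p = 0.00287), and Ppbp alone of this list passed in the comparative ratio (3.86, SE 0.63, adjusted p = 0.0027). The median change of the list was -0.94 and -1.03, against 0.02 and 0.06 over all genes. Of 23 tested genes of chemokine receptor signaling, 3 rose and 3 fell in dispersed and 4 rose and 3 fell in myofiber-associated myoblasts, with medians of 0.0043 and 0.13. Gnai1, the inhibitory G protein subunit to which these receptors couple, rose in both, by 1.04 (adjusted p = 5.61e-05) and 1.93 (adjusted p = 0.00343). Of 29 tested genes of NF-kB, its inducers and its targets, 3 rose and 7 fell in dispersed and 1 rose and 2 fell in myofiber-associated myoblasts, with medians of -0.01 and -0.32. The adhesion molecule Icam1 fell in both (log2 change -1.19, adjusted p = 3.53e-05, and -2.60, adjusted p = 0.00728), while the cytokine Il1b rose in both, by 1.15 (adjusted p = 0.000569) and 1.998 (adjusted p = 0.00528).

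Most of the interferon list fell in dispersed myoblasts. Of 21 tested interferon-stimulated genes, 17 fell in dispersed myoblasts, where all 21 estimates were below 0 (median -2.55 against 0.02 over all genes), and 6 fell in myofiber-associated myoblasts, where 17 of 21 were below 0 (median -1.16 against 0.06). Ifi44 fell by 3.69 (adjusted p = 5.38e-05) and Ifit3 fell by 3.56 (adjusted p = 4.78e-05) in dispersed myoblasts, and Oas1a, an antiviral enzyme, fell by 2.44 (adjusted p = 0.00498) on the myofiber. At 48 hr 20 of the 21 were lower on the myofiber than in dispersed myoblasts, where 27% of all genes were. Cxcl10 went the other way at that time, being higher on the myofiber. Of 11 tested proteases that cut or shed chemokines, 1, Ctss, fell in dispersed myoblasts, by 1.41 (adjusted p = 0.000985), and 9 of the 11 estimates were below 0 in myofiber-associated myoblasts, without passing (median -0.96).

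Marker genes of other cells were counted from lists as well, and the lists did not all move alike. Over all genes tested, 7.37% rose and 6.35% fell in dispersed myoblasts, and 3.74% rose and 1.75% fell on the myofiber. Between the cultures, 16.1% of all genes were higher and 27% lower on the myofiber at 48 hr, and 11.5% and 15.6% at 72 hr. Of 18 endothelial markers, all tested, 17 fell in dispersed myoblasts and 11 on the myofiber, and 17 at 48 hr and 16 at 72 hr were lower on the myofiber. Their summed linear signal ranged from 176087 to 238170 in dispersed myoblasts at 48 hr, 63702 to 90906 at 72 hr, 28341 to 58755 in myofiber-associated ones at 48 hr and 15282 to 19803 at 72 hr. In the same order, 23 leukocyte markers summed to 27336 to 33485, 20958 to 25071, 24122 to 33358 and 18893 to 23522, with 8 of 17 tested falling in dispersed myoblasts, 1 falling on the myofiber and the T-cell marker Cd3d above background on no array, while another, Cd3e, was above it on all 16. Cx3cr1, a member described above, is also in that list. Between the cultures 10 of these 17 were lower and 1, the macrophage marker Cd68, was higher on the myofiber at 48 hr, and 8 were lower and 2, Cd68 and Cd3e, higher at 72 hr. The 15 fibroblast markers summed to 188113 to 250182, 142163 to 222167, 129957 to 278830 and 63894 to 95925. Of 13 tested, 1 fell in dispersed myoblasts and 4 fell on the myofiber (median log2 change -0.21 and -1.16). Between the cultures 4 of the 13 were lower on the myofiber at 48 hr, near the share of all genes, and 10 were lower and 1 higher at 72 hr. The 12 adult muscle fiber markers ran the other way, from 23884 to 59221 and 15283 to 17391 in dispersed to 1905848 to 2634091 and 381368 to 1823765 in myofiber-associated samples, with all 12 at 48 hr and 11 at 72 hr higher there. The 10 mast cell markers summed to 4018 to 4731 and 3804 to 4437 in dispersed and 658 to 1916 and 1014 to 2120 in myofiber-associated samples, with Ms4a2 above background on no array, and 1 of 7 tested rose and 2 fell in dispersed myoblasts. The 10 pericyte and smooth muscle markers summed to 82948 to 140205 and 121686 to 212349 in dispersed and 12623 to 15991 and 14599 to 20300 in myofiber-associated samples, with 1 rising and 3 falling in dispersed and 1 rising and 1 falling in myofiber-associated myoblasts. The 8 Schwann cell markers summed to 8168 to 9817 and 6374 to 7170 in dispersed and 3168 to 4573 and 2845 to 4111 in myofiber-associated samples, and 3 of 6 tested fell in dispersed myoblasts. Of the 12 myoblast markers, 4 rose and 1 fell in dispersed and 4 rose in myofiber-associated myoblasts. The part of these cells in the chemokine results was not tested.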

How the data were processed

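Each sample was hybridized to a 1-color Agilent mouse array. The deposited files hold, per spot, scanner intensity read with Feature Extraction 11.0.1.1, background-corrected by the software, and the authors also deposited a table of log2 ratios, 1 column per 72-hr sample, taken as relative to the 48-hr data of the same culture, which the study's methods name as the reference of the normalization. Over genes these columns correlated at r of 0.975 to 0.987 with the change of the same array from the 48-hr mean computed here (medians -0.0051 to 0.1079). From the processed intensity, log2 values of each array were fitted by loess (span 0.3, 4 iterations) to the mean 48-hr array of the same culture and then quantile-normalized across the 16 arrays, spots of a probe were averaged, and the brightest probe stood for a gene. Names of 1849 spots differed between slides. Genes with a median log2 signal of 5 or more (20317) were tested with limma 3.58.1 in R 4.3.3, within each culture on 8 arrays, on all 16 for the comparative ratio, and within each time for cultures, with Benjamini-Hochberg adjustment and a threshold of 0.01. SAM, which the study used, was not installed, so limma was used in its place. Preparations are the replicates, and with 4 against 4 arrays the smallest exact two-sided permutation p is 0.0286. Their number limits the precision.

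Members and lists were chosen with earlier results of these data known. The measured members were named, except 1 receptor that is not reported here, and those past the threshold in a comparison of times or in the comparative ratio, with Cxcl12 and Cxcr4, were given for every array. Of other genes up to 3 per list were named, those past the threshold with the largest change, and Ackr3, Pax7, Myod1, Des, Cd3d, Cd3e, Cd68 and Ms4a2 were named outside this rule, the last 4 after their values were seen. Probe positions are those of the array design (mm9), and promoter sequence is RefSeq's (GRCm38.p6). The scripts were tested on simulated data. Alternatives were another background correction, scaling, filter, probe summary, threshold and fit, the slide row as a block, the deposited ratios, and each array left out; single probes and the counts without Cxcl11 were added after seeing the data.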

Additional observations from a re-analysis of the deposited data

Results flagged for a closer look

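Among 124 groups of 4 arrays (31 measured members in 4 groups), 8 held an array far from the other 3 of its group, where about 6.2 are expected by chance. Of these, 5 were the pooled array of the myofiber-associated 48-hr group. It read 17.67 for Ccl2 against 16.44 on the nearest array, 15.77 for Ccl7 against 14.56, 16.23 for Cxcl5 against 13.27 and 17.84 for the nonspecific Cxcl11 probe against 17.49, and it was low for Ccl6, at 7.4 against 8.6. Replicate 3 of the myofiber-associated 72-hr group was high for Cx3cl1, at 12.26 against 11.59, and for Cxcl16, at 7.73 against 6.63. Replicate 3 of the dispersed 48-hr group read 2.26 for Cxcl13 against 1.9, below background.

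The change from 48 to 72 hr differed between dispersed and myofiber-associated myoblasts, by the test of the difference itself, for Cxcl12 (-1.47) and Cxcr4 (-1.69). The first of these rests on the brighter of the Cxcl12 probes.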

How the results depend on the processing

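No paired analysis was possible because the groups compared share no replicate number in the labels. The count of members past the threshold in dispersed myoblasts, 6, became 10 with the slide row as a block, 1 in one fit of all 16 arrays, 13 at an adjusted p of 0.05 and 11 from the deposited ratios. In the one fit of all 16 arrays Cxcl9 passed in dispersed myoblasts, and Ccl3, Ccl6 and Cxcl16 missed (adjusted p = 0.0276, 0.254 and 0.0693). In myofiber-associated myoblasts the count of 6 became 2 with no filter on low signal, 1 with the slide row as a block, 17 in one fit of all arrays, 14 at 0.05 and 16 from the deposited ratios. For the comparative ratio the count of 2 became 1 with the mean of all probes, 10 at 0.05 and 15 from the deposited ratios. The test of the deposited ratios took the 72-hr columns alone, against 0 or between the cultures. The spread among the 48-hr arrays is therefore not in its adjusted p, so its counts cannot be set against the others. The numbers of all genes past the threshold under the settings above are not given here. Whether the members changed more than all genes did is therefore not shown. With 1 array left out the counts of members ran from 4 to 6 in dispersed and from 1 to 7 in myofiber-associated myoblasts. They ran from 0 to 6 for the comparative ratio. Between cultures they ran from 11 to 20 at 48 hr and from 8 to 13 at 72 hr. The highest, 7, 6 and 20, came without the pooled array. Of all genes tested, 1990, 2368 and 11144 were then past the threshold, against 1114, 701 and 8772 with every array. The count of 0 came without dispersed 48-hr replicate 4 or dispersed 72-hr replicate 1 or 2. In that order, 307, 311 and 295 of all genes were then past the threshold. For cultures at 72 hr, all genes past it ran from 3312 to 5627 with 1 array left out, against 5513. The directions that turned belonged to genes whose probes disagree. For Cxcl12 in dispersed myoblasts the change was 0.0025 over the mean of probes and 0.39 by the dimmer probe. For Ccl25 the culture difference at 48 hr was -0.13 and -0.43 by the dimmer probes, and at 72 hr -0.0467 over the mean of probes and -0.53 by a dimmer probe. The causes of these changes were not tested. Low signal limits the receptors, of which 14 of 18 could not be followed.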
